A study of Mus musculus with 9 samples.

Results

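Erythroblasts with 0, 1 and 2 copies of the Th3 allele were set in order on all 9 arrays of the series (3 wild type, 3 Th3/+ and 3 Th3/Th3), and the question was which genes and processes shift in step with allele number and which shift only when both alleles are Th3. All 12898 genes with a probe set of their own above the filter on dim signals were followed, out of 28939 probe sets outside the array's control block. In the Th3 allele, a model of beta-thalassemia, the adult beta-globin genes are deleted, so Th3/+ cells keep 1 intact adult locus and Th3/Th3 cells keep none. Every embryo came from a Th3/+ by Th3/+ cross at stage E14.5, on a 129SV background backcrossed for 9 generations to C57BL/6, and the wild type embryos (+/+) came from the same crosses. The cells were fetal liver erythroblasts sorted as CD71+ (the transferrin receptor), Ter119+ and high in forward scatter, and each array started from 35 ng of RNA. The allele is a germline loss carried by every cell of the embryo, and the labels call the 3 samples of a genotype biological replicates without saying whether 1 was a single embryo or a pool or which shared a litter, so the p-values measure the spread between these samples.

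In a red cell precursor, alpha and beta globin are made in large and matched amounts, and alpha globin without a partner is unstable, precipitates and generates oxidants with its heme. Chaperones of the heat shock family refold or hold such proteins, the ubiquitin-proteasome system degrades them, and the ATF4 and NRF2 programmes answer stress on translation and oxidation. The same cells are at this stage completing the erythroid programme: heme synthesis, the red cell membrane skeleton, blood group antigens and the enzymes that remodel the cell before the nucleus is lost.

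For each gene the shift of Th3/+ from wild type was divided by the shift of Th3/Th3 from wild type, both as differences of mean log2 signal, and this het share is the quantity used throughout. A share of 0 means no shift with 1 allele, 0.5 means equal log2 steps with each allele, and 1 means that 1 allele already gave the whole shift. Each share carries a 95% interval from the fitted variance of the model. A gene called in Th3/Th3 against wild type (limma, Benjamini-Hochberg adjusted p under 0.05) was termed second-allele type when the interval held 0 and not 0.5, and in-step type when it held 0.5 and not 0. It was termed partial when the interval lay between 0 and 0.5, and not placed when it held both values. To leave out 0.5 needs a distance of Th3/+ from the midpoint, and to leave out 0 a shift from wild type. The first has the smaller standard error, so second-allele type was easier to reach than in-step type at equal distance. An in-step interval could also hold 1. A few genes had an interval above 0.5 (mostly 1 allele, 3 that rose and 2 that fell) or below 0 (opposite, 4 and 3). The Th3/+ and Th3/Th3 shifts of a gene share the same 3 wild type arrays, so a stray wild type value moves both, whereas the distance of Th3/+ from the midpoint of the other genotypes is statistically independent of the Th3/Th3 shift in this balanced design.

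The adult beta-globin probe sets followed the labels. On one of the 2 probe sets shared by the adult genes, wild type arrays read 13.81, 13.86 and 13.84 and Th3/+ arrays 13.81, 13.76 and 13.76, and Th3/Th3 arrays read only 9.83, 10.09 and 8.49. The wild type and Th3/+ values lie within about 1 log2 unit of the top of the scale (14.03 to 14.20 on the individual arrays). Their means differed by only -0.065, which was not called. How far this probe set can resolve a difference in dose between them was not tested. The alpha-globin probe sets differed by 0.11 and 0.13 at most between genotype means, also near the top of the scale. Of 10 erythroblast markers 9 were measured, and wild type means ran from 8.86 for Tal1, a transcription factor of blood precursors, to 12.99 for Slc4a1, the red cell anion exchanger. In an earlier look at these data Th3/+ replicate 1 and Th3/Th3 replicate 1 stood apart from the other arrays of their genotypes, so results that rest on them are given without them too. Lower signal in these sorted populations cannot be separated into fewer cells at a stage and less RNA per cell.

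With 1 allele very little passed the test, and with 2 alleles a great deal did. In Th3/Th3 against wild type, 995 genes rose (7.71% of 12898) and 692 fell (5.37%). In Th3/+ against wild type, 2 genes rose (0.0155%) and none fell by limma, where 645 of 17742 probe sets had an unadjusted p under 0.05. The second step was large: in Th3/Th3 against Th3/+, 580 genes were higher (4.5%) and 475 lower (3.68%). By probe set, 5 were called with 1 allele (0.0282%) with all arrays, 12 without Th3/+ replicate 1, 3 without wild type replicate 1 and 1 without Th3/+ replicate 2.

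The shares were low on both sides, and higher among the genes that rose than among those that fell in 2 of the 3 Th3/+ arrays. The median share was 0.22 over the 995 risers (quartiles 0.082 and 0.35) and 0.14 over the 692 fallers (quartiles 0.024 and 0.28). By single Th3/+ array the median of the risers was 0.15, 0.26 and 0.31, and that of the fallers 0.22, 0.050 and 0.15, so the array with the lowest share for risers had the highest for fallers. Among risers, 308 (31%) were second-allele type and 157 (15.8%) in-step type, with 14 partial and 509 (51.2%) not placed. Among fallers, 326 (47.1%) were second-allele type and only 58 (8.38%) in-step type, with 10 partial and 293 (42.3%) not placed. Among genes changed at least 2-fold, 120 of 258 risers and 142 of 215 fallers were second-allele type, against 57 and 22 of in-step type. The class counts depend on single arrays: second-allele risers numbered 193, 201, 199 and 203 without Th3/+ replicate 1, Th3/+ replicate 2, wild type replicate 3 and wild type replicate 2, and in-step risers numbered 91 without Th3/+ replicate 3. Second-allele fallers numbered 209 without Th3/+ replicate 2, and in-step fallers 35 without Th3/+ replicate 3 and 38 without wild type replicate 3.

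**Figure D1:**
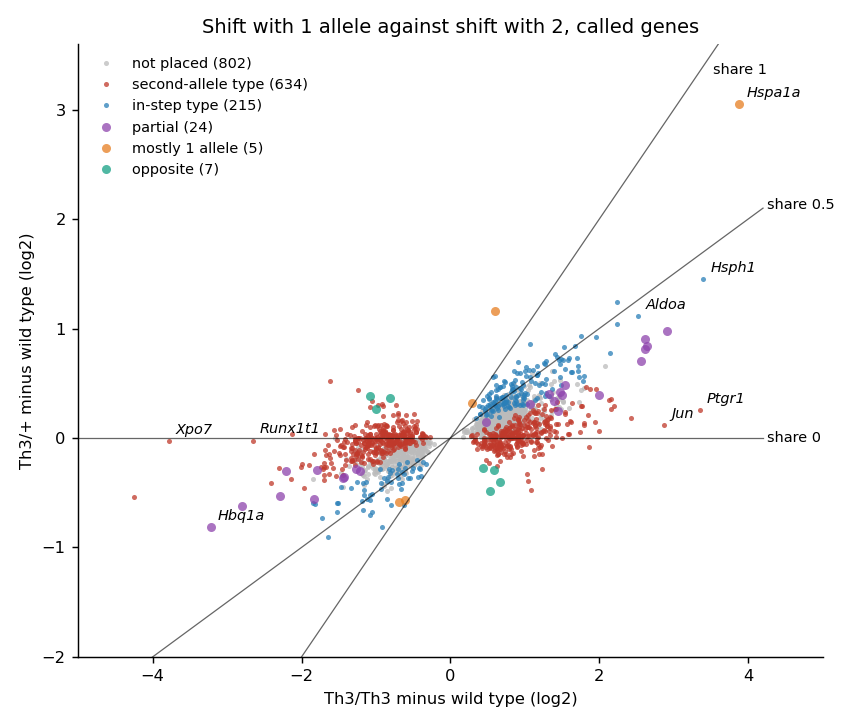
Shift of Th3/+ from wild type (vertical axis, log2) against shift of Th3/Th3 from wild type (horizontal axis, log2) for the 1687 called genes, 1 point each, coloured by class, with lines at shares of 0, 0.5 and 1. The second-allele genes (308 that rose, 326 that fell) lie along the line of share 0 on both sides, the in-step genes (157 that rose, 58 that fell) along the line of share 0.5, and Hspa1a, with a share of 0.79, between those of 0.5 and 1.

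**Figure D2:**
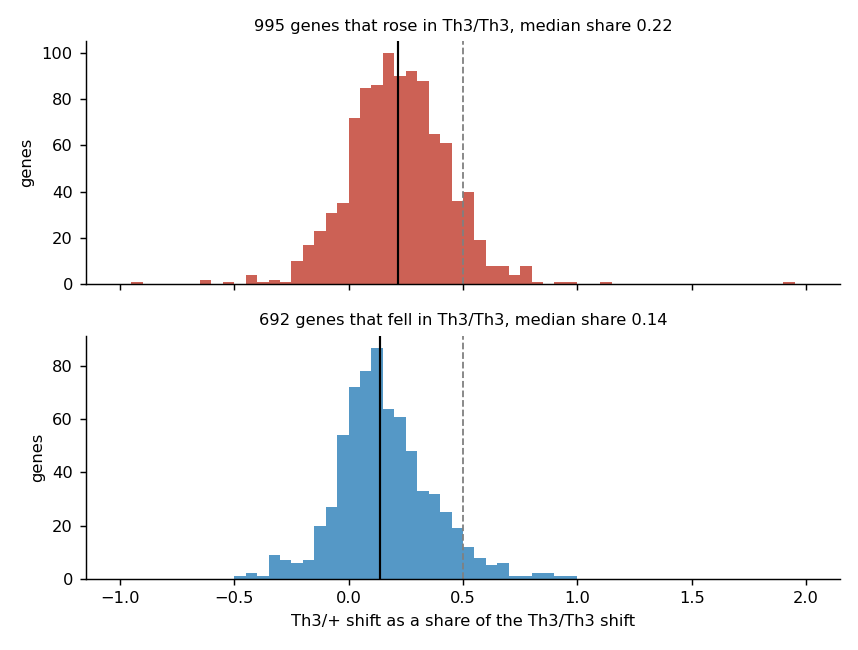
Number of called genes (vertical axis) by het share (horizontal axis, bins of 0.05), for risers in the upper panel and fallers in the lower, with the median as a solid line and 0.5 as a dashed line. Both distributions peak between 0 and 0.5, with medians of 0.22 and 0.14.

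Counts from the order of the arrays alone need no variance model. On all 9 arrays, 195 genes rose in strict order of allele number without overlap (1.51% of 12898) and 107 fell in order (0.83%). Th3/Th3 lay apart from all 6 other arrays while wild type and Th3/+ interleaved, a pattern that many more orders of the arrays satisfy, in 1185 genes that were higher (9.19%) and 907 that were lower (7.03%). The direct test of departure from the midpoint was called for 14 probe sets (0.0789%) and 12 genes (0.093%), with 1389 at an unadjusted p under 0.05. In 13 of the 14, which were also called in Th3/Th3 against wild type, Th3/+ lay nearer wild type than Th3/Th3, and the other, Prxl2b, was not called in that contrast. This count rests on each array: it was 1 without any single Th3/+ array, 2, 3 and 4 without wild type replicates 1, 2 and 3, and 33, 6 and 8 without Th3/Th3 replicates 1, 2 and 3. It was also 2 with no filter on dim signals and 2 without the trend in the variance model, so calls against the midpoint at an adjusted p near 0.05 lie at the edge of this test.

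The promoters below show the sequence features of genes from both sides of this range, chaperones of in-step or partial type (Hsph1 and Chordc1) and red cell membrane genes of second-allele type (Kel and Epb42). They are RefSeq sequences of build GRCm38.p6, 300 bases each from 250 before to 50 after an annotated start, written 5′ to 3′ on the gene's strand. The first pair holds a heat shock element (GAA, TTC and GAA, or TTC, GAA and TTC, with NN between neighbours, on either strand, the site of the heat shock factors), and the second pair holds an E-box followed by a GATA motif (CTG and GATA with 9 N between them, on either strand, the composite site of the TAL1 and GATA1 complex), in capitals. Coordinates are chr5:149636287-149636586 (minus strand) for Hsph1, chr9:18292017-18292316 (plus strand) for Chordc1, chr6:41704276-41704575 (minus strand) for Kel and chr2:121036828-121037127 (minus strand) for Epb42.
Hsph1: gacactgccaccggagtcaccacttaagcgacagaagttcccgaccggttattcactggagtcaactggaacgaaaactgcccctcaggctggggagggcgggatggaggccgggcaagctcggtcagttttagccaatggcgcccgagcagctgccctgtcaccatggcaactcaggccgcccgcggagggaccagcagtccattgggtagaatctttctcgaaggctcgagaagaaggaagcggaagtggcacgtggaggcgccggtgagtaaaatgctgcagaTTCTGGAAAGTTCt
Chordc1: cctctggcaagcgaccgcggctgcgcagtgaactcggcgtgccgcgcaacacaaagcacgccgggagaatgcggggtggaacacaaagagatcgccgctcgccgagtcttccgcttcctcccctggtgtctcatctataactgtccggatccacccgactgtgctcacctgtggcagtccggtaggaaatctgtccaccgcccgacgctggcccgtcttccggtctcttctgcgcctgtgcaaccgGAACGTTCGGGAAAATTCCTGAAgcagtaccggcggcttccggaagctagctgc
Kel: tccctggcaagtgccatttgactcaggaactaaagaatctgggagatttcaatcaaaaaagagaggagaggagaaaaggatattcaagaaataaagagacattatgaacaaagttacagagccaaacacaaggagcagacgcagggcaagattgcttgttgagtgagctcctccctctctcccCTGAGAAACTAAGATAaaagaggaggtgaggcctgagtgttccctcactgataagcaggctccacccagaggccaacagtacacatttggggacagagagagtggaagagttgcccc
Epb42: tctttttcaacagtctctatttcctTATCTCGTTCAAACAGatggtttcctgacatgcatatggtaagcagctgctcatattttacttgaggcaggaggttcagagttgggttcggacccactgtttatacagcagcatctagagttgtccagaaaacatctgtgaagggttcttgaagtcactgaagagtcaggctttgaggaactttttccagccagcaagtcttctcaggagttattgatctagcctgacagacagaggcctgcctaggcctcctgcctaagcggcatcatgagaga
The run in capitals for Hsph1 starts 36 bases after the start site, so it lies in the transcribed part, and that for Chordc1 is 3 overlapping matches around the start. In Kel and Epb42 the match begins at -67 and -225 relative to the start.

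Heat shock elements of this form lay in the windows of 5 of 30 chaperone genes with a promoter in the table (16.7%), against 54 of 10233 measured genes (0.528%) and 198 of 32851 promoters of the whole table (0.603%). By class it lay in 4 of 259 second-allele risers (1.54%) and 2 of 135 in-step risers (1.48%). The 5 chaperone genes were Hsph1, Chordc1, Dnajb6, Hspe1 and Hspd1, of which Hspe1 and Hspd1 are neighbours that diverge from a common region. The E-box with GATA was found in 7 of 23 red cell membrane genes (30.4%), 4 of 27 late erythroid genes (14.8%) and 21 of 263 second-allele genes that fell (7.98%), against 232 of 10233 measured genes (2.27%). It was found in 0 of 16 heme synthesis genes, another list that fell mostly as second-allele type. In-step genes that fell held it in 1 of 41 (2.44%), and in-step risers in 5 of 135 (3.7%). The antioxidant response element (TGAC and GC with NNN between them, either strand) lay in 31 of 135 in-step risers (23%), 48 of 259 second-allele risers (18.5%) and 1686 of 10233 measured genes (16.5%). In the NRF2 list the antioxidant element lay in 9 of 30 genes (30%). In all 6 motifs were searched, among them the KLF1, AP-1 and ATF4 sites. The KLF1 site lay in 10 of 23 red cell membrane genes (43.5%), 7 of 27 late erythroid genes (25.9%) and 26.2% of measured genes. The AP-1 site lay in 6 of 30 NRF2 genes (20%) and 6.33% of measured genes, but in 5.19% of in-step risers and 5.79% of second-allele risers. These are matches of letters in a fixed window, and binding was not measured.

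The heat shock chaperones held both genes that were called with 1 allele. Of 34 measured members, 17 rose in Th3/Th3 and 1 fell, against 7.71% and 5.37% of all genes. The list share was 0.40 (0.49 without Th3/+ replicate 1 and 0.36 without Th3/+ replicate 3). The mean of the group lay 0.21, 0.45 and 0.46 above wild type on the 3 Th3/+ arrays. On the 3 Th3/Th3 arrays it lay 0.83, 0.93 and 1.02 above wild type. Wild type arrays spread from -0.06 to 0.05 on this scale, so the 3 genotypes did not overlap. Of the 17 that rose, 9 were in-step type, against 15.8% of all risers. Another 3 were partial, 1 carried most of its rise with 1 allele, 2 were second-allele type and 2 were not placed. Of the 34 members 14 had an unadjusted p under 0.05 for a rise in Th3/+. Over all 17742 kept probe sets 645 had an unadjusted p under 0.05, in either direction.

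Hspa1a, the inducible HSP70, and Hspa8, its constitutive relative, were the genes called with 1 allele. Neither call held in a fit of the wild type and Th3/+ arrays alone, in which 0 probe sets were called. Hspa1a read 6.24, 6.15 and 5.38 in wild type arrays, 8.95, 9.33 and 8.64 with 1 Th3 allele and 10.12, 9.57 and 9.72 with 2, with no overlap between the 3 genotypes. Its rise was 8.29-fold with 1 allele (adjusted p = 0.00482, limma) and 14.7-fold with 2, a share of 0.79 (95% interval 0.65 to 0.94). Th3/+ lay above the midpoint of the other genotypes by 1.11, which was not called (adjusted p = 0.146). Hspa1a has a near-identical neighbour, Hspa1b, and its values are uncertain as to which of the pair they read. A probe set with no listed gene rose alongside, from a mean of 6.51 to 9.48 and 10.43.

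Hspa8 stepped up evenly, from 11.72, 11.68 and 11.83 in wild type to 12.43, 12.66 and 12.66 with 1 allele and 13.29, 13.19 and 13.34 with 2. The first step was 1.78-fold (adjusted p = 0.00482) and the total 2.88-fold, a share of 0.55 (0.45 to 0.64). Its other called probe sets gave shares of 0.49 and 0.53. The Th3/Th3 values of Hspa8 also lie near the top of the scale (14.03 to 14.20), and the part this has in its share was not tested.

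Cochaperones of HSP70 and HSP90 covered the range below. Hsph1, the HSP110 nucleotide exchange factor of HSP70, read 7.17, 7.22 and 7.94 in wild type arrays, 8.57, 8.95 and 9.17 with 1 Th3 allele and 10.46, 10.77 and 11.29 with 2, in order on all 9 arrays, 2.73-fold and 10.5-fold over wild type with a share of 0.43 (0.26 to 0.58). Dnaja1, an HSP40 that delivers clients to HSP70, read 10.41, 10.56 and 10.73 in wild type arrays, 11.11, 11.41 and 11.20 with 1 Th3 allele and 11.84, 12.12 and 12.15 with 2, a share of 0.46 (0.29 to 0.62). The HSP40 genes Dnajb1 and Dnajb6 and the cytosolic HSP90 gene Hsp90aa1 had shares of 0.54, 0.56 and 0.53. St13 and Stip1, which pass clients between HSP70 and HSP90, had 0.43 and 0.38.

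Partial members had a first step that was measurable but short of the midpoint. Chordc1, a cochaperone of HSP90, read 7.09, 7.29 and 6.98 in wild type arrays, 7.95, 8.07 and 8.05 with 1 Th3 allele and 9.56, 9.79 and 9.86 with 2, a share of 0.35 (0.24 to 0.45). Bag3, which links HSP70 to autophagy, rose by 2.61 in Th3/Th3 with a share of 0.31. The lowest shares among the called members that rose were those of mitochondrial chaperones and of Ahsa2, an activator of HSP90 (0.19): Hspe1 (HSP10) had a share of 0.17 (0.054 to 0.28) and Hspa9 (mitochondrial HSP70) a share of 0.084 (-0.35 to 0.40), second-allele type.

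**Figure D3:**
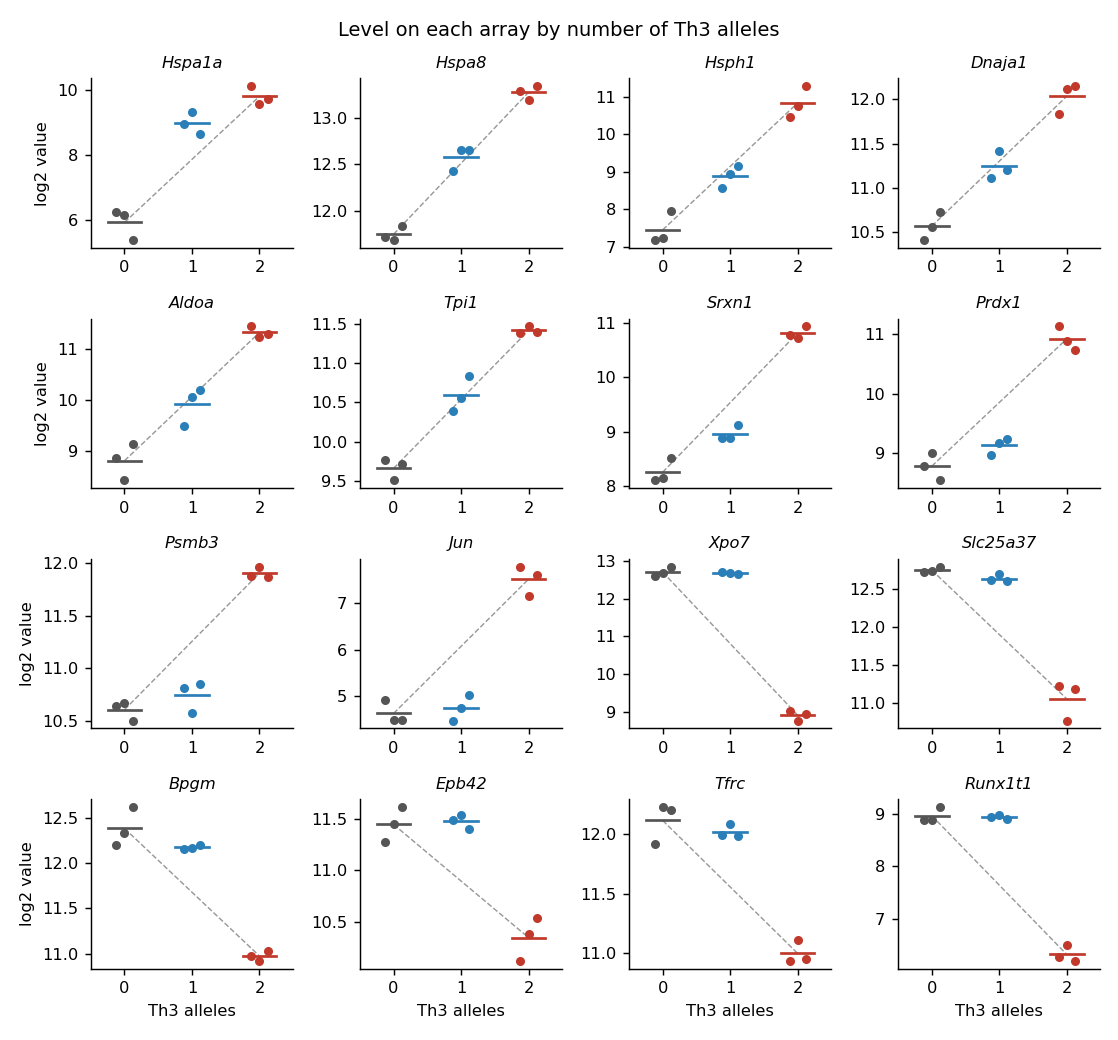
Log2 signal (vertical axes, separate ranges that do not start at 0) by number of Th3 alleles (horizontal axes) for 16 genes, 1 point per array, grey for wild type, blue for Th3/+ and red for Th3/Th3, with bars at the means. The dashed line joins the wild type and Th3/Th3 means, so Th3/+ on the line is an even step: Hspa8, Hsph1, Dnaja1, Aldoa and Tpi1 lie near it, Hspa1a above it, and Xpo7, Jun and Runx1t1 overlapping wild type.

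The cytosolic chaperonin TRiC and its partner prefoldin, which fold actin, tubulin and other new proteins, had 12 of 14 members higher in Th3/Th3 and none lower. Of all genes 7.71% were higher and 5.37% lower. The list share was 0.28 (0.38 without Th3/+ replicate 1 and 0.21 without Th3/+ replicate 3). Cct3 of the TRiC ring rose with a share of 0.26 (0.043 to 0.45), Cct7 with 0.39 (0.12 to 0.64) and Tcp1 with 0.45 (0.15 to 0.73). Pfdn1, a prefoldin subunit, stood at 0.0061 with an interval too wide to place it (its upper end is 0.51).

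Of 44 proteasome genes, 26 rose in Th3/Th3 and 1 fell, against 7.71% and 5.37% of all genes. Of the 26, 14 were in-step type, 4 second-allele type and 8 not placed, where 15.8% of all risers were in-step type. The list mean lay 0.04, 0.24 and 0.32 above wild type on the Th3/+ arrays and 0.53, 0.60 and 0.59 on the Th3/Th3 arrays, with wild type from -0.08 to 0.13. Th3/+ replicate 1 thus overlapped wild type and the other Th3/+ arrays did not. The share was 0.35 with all arrays, 0.49 without Th3/+ replicate 1 and 0.24 without Th3/+ replicate 3.

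Within the core particle the subunits did not share 1 pattern. Psmb6, a catalytic subunit, read 11.48, 11.60 and 11.59 in wild type arrays, 11.84, 11.86 and 11.97 with 1 Th3 allele and 12.57, 12.43 and 12.31 with 2, a share of 0.38 (0.20 to 0.55). Psmb7, another catalytic subunit, had a share of 0.58 (0.30 to 0.87), and Pomp, the assembly factor of the core, 0.35 (0.16 to 0.52). Psmb3, a structural subunit, was second-allele type instead: wild type read 10.64, 10.67 and 10.50, Th3/+ 10.81, 10.57 and 10.85 and Th3/Th3 11.87, 11.96 and 11.87, a share of 0.10 (-0.065 to 0.25), and the Th3/+ and wild type arrays overlapped. The 1 member that fell was Psme3, an activator cap of the nucleus, at -0.73 with a share of 0.054.

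In glycolysis the list split: of 16 measured members 8 rose, 4 of them in-step type, and 3 fell, all second-allele type. Of all genes 7.71% rose and 5.37% fell, and 15.8% of all risers were in-step type. Aldoa (aldolase) read 8.85, 8.41 and 9.14 in wild type arrays, 9.48, 10.06 and 10.19 with 1 Th3 allele and 11.44, 11.23 and 11.30 with 2, 2.16-fold and then 5.76-fold over wild type, a share of 0.44 (0.26 to 0.61). Tpi1 (triosephosphate isomerase) read 9.76, 9.51 and 9.71 in wild type arrays, 10.39, 10.56 and 10.84 with 1 Th3 allele and 11.39, 11.47 and 11.39 with 2, a share of 0.53 (0.39 to 0.67). Both ran in order on all 9 arrays.

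Pgk1 and Ldha, a kinase and the lactate dehydrogenase of the same pathway, had shares of 0.45 and 0.39, also in-step type. Among the fallers, Slc2a1, the glucose transporter, read 12.46, 12.50 and 12.95 in wild type arrays, 12.64, 12.69 and 12.71 with 1 Th3 allele and 10.94, 10.05 and 10.54 with 2, a share of -0.017 (-0.27 to 0.18), and Bpgm, the red cell mutase that supplies the bisphosphoglycerate bound by hemoglobin, had 0.15 (-0.012 to 0.29). Since members moved in opposite directions in Th3/Th3, the list share of 0.59 is a ratio of partly cancelling sums and is not the share of a typical member. It was 0.76 without Th3/+ replicate 1, and 0.89 without Th3/Th3 replicate 1 as well.

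In the pentose phosphate pathway, which makes NADPH, 4 of 9 members rose, against 7.71% of all genes. Pgd, its second dehydrogenase, read 7.08, 6.68 and 7.58 in wild type arrays, 7.92, 7.90 and 8.45 with 1 Th3 allele and 10.09, 9.83 and 10.14 with 2, without overlap, and its share was 0.34 (0.17 to 0.50). Taldo1 (transaldolase) had 0.50 (0.11 to 0.89). The list share was 0.26.

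Genes of the ATF4 programme and of the endoplasmic reticulum response fell into several classes. Of 28 ATF4 genes, 10 rose and 3 fell in Th3/Th3, against 7.71% and 5.37% of all genes. The list share was 0.30 (0.36 without Th3/+ replicate 1 and 0.20 without wild type replicate 3). Ddit3, the transcription factor CHOP, read 9.68, 9.55 and 9.38 in wild type arrays, 9.86, 9.96 and 9.81 with 1 Th3 allele and 11.03, 10.84 and 10.90 with 2, partial with a share of 0.25 (0.072 to 0.40). Asns, asparagine synthetase, was already at its Th3/Th3 level in Th3/+, with 11.59, 11.65 and 11.44 in wild type arrays, 11.80, 11.88 and 11.96 with 1 Th3 allele and 11.80, 11.80 and 11.95 with 2, a share of 1.10 (0.57 to 2.37), on a total rise of only 0.29. Nupr1, a stress-induced nuclear protein, was second-allele type with a share of 0.12 on a rise of 2.16.

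Slc1a5 and Slc7a5, amino acid transporters of that list, were second-allele type genes that fell (shares 0.038 and -0.45). Slc7a11, the cystine transporter, read 3.84, 4.05 and 3.92 in wild type arrays, 3.98, 3.78 and 4.18 with 1 Th3 allele and 5.45, 5.54 and 5.62 with 2. It was called away from the midpoint (adjusted p = 0.0473), but its wild type and Th3/+ values lie under the level used as the filter on dim signals (a mean of 4.57 over arrays), so a small first step would not be visible there.

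Of 26 genes of the unfolded protein response of the endoplasmic reticulum, 5 rose, against 7.71% of all genes. Of the 5, 3 were in-step type, 1 second-allele type and 1 opposite. Over all risers 15.8% were in-step type and 31% second-allele type. Herpud1, a factor of protein export for degradation, was in-step type (7.98, 8.11 and 7.88 in wild type arrays, 8.58, 8.63 and 8.89 with 1 Th3 allele and 9.69, 9.26 and 9.39 with 2, share 0.49, interval 0.28 to 0.69). Dnajb9, a cochaperone of the lumen, was second-allele type (5.09, 5.23 and 5.23 in wild type arrays, 5.10, 5.35 and 4.86 with 1 Th3 allele and 6.68, 7.48 and 6.99 with 2, share -0.043). Pdia4 was the opposite member, at 0.83-fold of wild type with 1 allele and 1.35-fold with 2, a share of -0.63. The list share of 0.25 depended on single arrays: it was 0.46 without Th3/+ replicate 1, whose list mean of -0.06 lay within the wild type range, and 0.16, 0.16 and 0.14 without wild type replicate 1, Th3/+ replicate 2 and Th3/+ replicate 3.

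Among 17 aminoacyl-tRNA synthetases, which charge tRNAs with amino acids, 5 rose, 3 of them in-step type. Of all genes 7.71% rose, and 15.8% of all risers were in-step type. Sars (serine) had a share of 0.49 (0.29 to 0.70), Gars (glycine) 0.61 (0.27 to 0.98) and Rars (arginine) 0.52. The list mean was -0.06, 0.25 and 0.40 on the Th3/+ arrays and 0.21, 0.37 and 0.56 on the Th3/Th3 arrays, so the genotypes overlapped, and the share of 0.52 became 0.85 without Th3/+ replicate 1 and 0.25 without Th3/+ replicate 3.

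The antioxidant genes of the NRF2 programme leaned to the second allele. Of 35 measured, 13 rose and 3 fell, against 7.71% and 5.37% of all genes. Of the 13 only Esd was in-step type, 2 were partial (Srxn1 and Gclc), 8 were second-allele type and 2 were not placed. Over all risers 31% were second-allele type. The list share was 0.19 (0.26 without Th3/+ replicate 1 and 0.12 without Th3/+ replicate 3). The list mean lay 0.03, 0.12 and 0.21 above wild type with 1 allele and 0.58, 0.66 and 0.68 with 2. Only Th3/+ replicates 2 and 3 exceeded the highest wild type array, at 0.08.

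Srxn1 (sulfiredoxin, which repairs peroxiredoxins) read 8.10, 8.14 and 8.51 in wild type arrays, 8.87, 8.88 and 9.12 with 1 Th3 allele and 10.79, 10.72 and 10.94 with 2, 1.63-fold with 1 allele and 5.92-fold with 2, a share of 0.28 (0.16 to 0.38). Prdx1, a peroxiredoxin, read 8.80, 9.01 and 8.55 in wild type arrays, 8.98, 9.18 and 9.25 with 1 Th3 allele and 11.13, 10.89 and 10.74 with 2, with Th3/+ and wild type overlapping and a share of 0.16. Ptgr1, a reductase of reactive lipids, rose by 3.35 in Th3/Th3 with a share of 0.077. Txnrd1 and Nqo1, reductases of thioredoxin and quinones, had 0.046 and 0.044, and Esd, an esterase, had 0.50 (0.36 to 0.64).

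**Figure D4:**
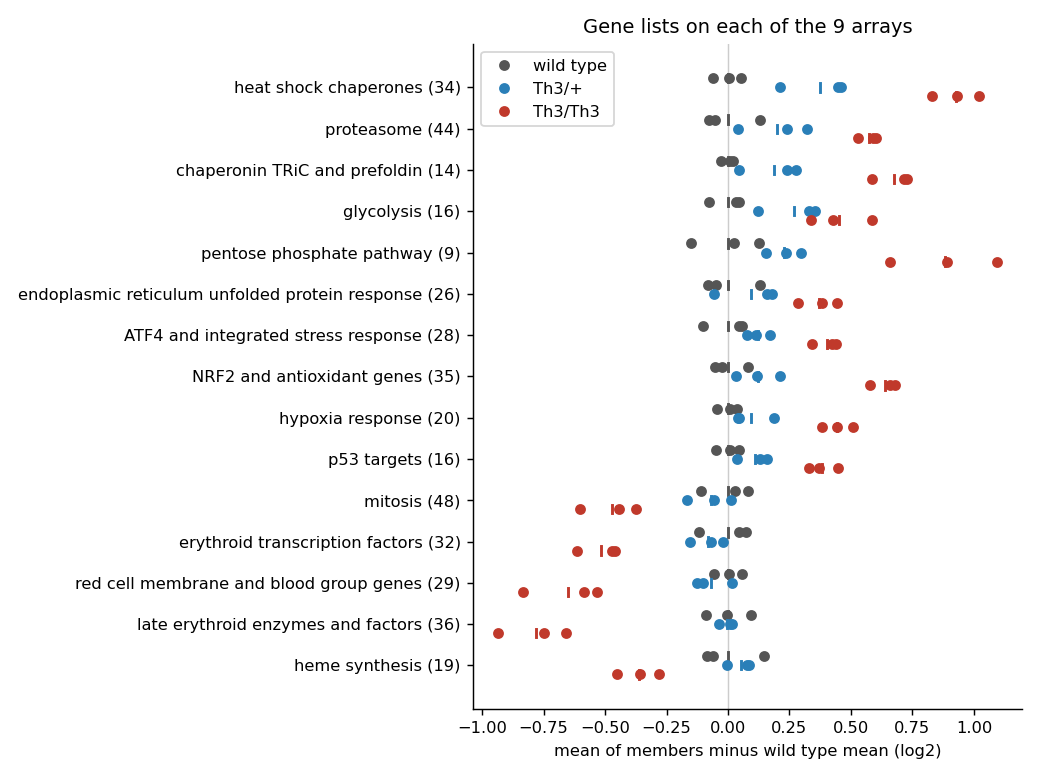
Mean of the measured members of 15 gene lists (number of members in parentheses) on each array as a difference from the wild type mean (horizontal axis, log2), 1 point per array and a tick at the genotype mean. The blue Th3/+ points lie between grey and red for chaperones, but within or next to the grey wild type points for the late erythroid, heme and red cell membrane lists.

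Among other risers named for a small p against the midpoint, Jun, a subunit of AP-1, read 4.92, 4.50 and 4.49 in wild type arrays, 4.48, 4.75 and 5.02 with 1 Th3 allele and 7.77, 7.15 and 7.58 with 2, 7.29-fold with 2 alleles and a share of 0.041 (-0.12 to 0.18). It was called away from the midpoint (adjusted p = 0.0479), with wild type and Th3/+ near the level of dim signals. Adprm, an ADP-ribose diphosphatase, rose 5.36-fold with a share of 0.074 (-0.064 to 0.20, adjusted p against the midpoint 0.0473).

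Cdk7, the kinase that activates cell cycle kinases and RNA polymerase II, had a share of 0.063 (-0.11 to 0.21), and Zfp36, an mRNA decay factor, 0.11 (-0.053 to 0.26). Neither was called against the midpoint (adjusted p = 0.067 and 0.0767). Zfp719, a zinc finger protein, had -0.055 on wild type and Th3/+ values below the level of dim signals.

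Of 20 hypoxia genes 5 rose and 1 fell, against 7.71% and 5.37% of all genes. The list share was 0.21 (0.26 without Th3/+ replicate 1 and 0.098 without Th3/+ replicate 2). Ero1a, an oxidase of the endoplasmic reticulum, had a share of 0.17 (-0.069 to 0.36) and the mitophagy receptor Bnip3 0.36 (0.058 to 0.64). Of 35 autophagy genes 8 rose and 2 fell, and the list mean lay 0.10, 0.17 and 0.15 above wild type on the Th3/+ arrays and 0.23, 0.23 and 0.35 on the Th3/Th3 arrays, with wild type from -0.06 to 0.05. The genotypes did not overlap, and the list share was 0.53, from 0.47 to 0.63 with 1 array left out. Among the called autophagy members, however, the median share was 0.27 and the highest 0.37. Only 1 of them was in-step type, with 3 second-allele type, 1 partial and 5 not placed. The list share is thus not the share of a typical called member. The cargo receptor Sqstm1 (p62) was partial, reading 9.23, 9.07 and 9.58 in wild type arrays, 9.70, 9.63 and 9.80 with 1 Th3 allele and 10.72, 10.81 and 10.76 with 2, a share of 0.28 (0.085 to 0.47). Of 16 p53 targets 3 rose, at a list share of 0.29, with Trp53inp1 at 0.033 (-0.25 to 0.25) and Ccng1 (cyclin G1) at 0.31 (-0.036 to 0.61). In the respiratory chain 11 of 73 members rose, in cholesterol synthesis 4 of 20 and among cytosolic ribosomal proteins 12 of 56, most of them not placed. For each of these lists the share over all genes was 7.71% for a rise.

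The late erythroid genes fell in Th3/Th3, and their mean in Th3/+ stayed inside the wild type range. Of 36 measured, 25 fell and 1 (Gclc) rose, against 5.37% and 7.71% of all genes. The list mean lay at 0.01, 0.02 and -0.04 on the Th3/+ arrays, inside the wild type range of -0.09 to 0.09, and at -0.66, -0.93 and -0.75 on the Th3/Th3 arrays. The list share was 0.0044, between -0.058 without wild type replicate 3 and 0.058 without wild type replicate 1. Of the 25 that fell 22 were second-allele type, against 47.1% of all fallers. Another 2 were not placed and 1, Ube2o, went the other way in Th3/+. Against Th3/+, 25 of the 36 members were called lower in Th3/Th3 (3.68% of all genes).

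Xpo7, a nuclear export receptor needed for nuclear condensation in erythroblasts, had the smallest p of any gene against the midpoint (adjusted p = 2.28e-05). Its wild type arrays read 12.59, 12.68 and 12.84, its Th3/+ arrays 12.70, 12.68 and 12.65, within the wild type range, and its Th3/Th3 arrays 9.04, 8.77 and 8.95. The fall was 13.8-fold with 2 alleles, and the share was 0.0068 with an interval of -0.049 to 0.060, the narrowest bound on a first step among the named genes.

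Among other late erythroid members, Bpgm read 12.20, 12.33 and 12.62 in wild type arrays, 12.16, 12.17 and 12.20 with 1 Th3 allele and 10.97, 10.92 and 11.04 with 2. Pklr (pyruvate kinase of red cells), Rnf123 and Trim58 (ubiquitin ligases) and Fn3k (a deglycating kinase) had shares of 0.14, 0.090, -0.26 and 0.027. Bnip3l, the receptor that clears mitochondria from reticulocytes, had 0.081 (-0.32 to 0.37).

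Of 29 red cell membrane and blood group genes 19 fell and 1 rose, against 5.37% and 7.71% of all genes. Of the 19, 17 were second-allele type, against 47.1% of all fallers. The list mean was -0.13, 0.01 and -0.10 on the Th3/+ arrays and -0.53, -0.83 and -0.58 on the Th3/Th3 arrays, a share of 0.11 (0.067 without Th3/+ replicate 1, 0.070 without wild type replicate 3 and 0.17 without Th3/+ replicate 2). Epb42 (protein 4.2, which ties the anion exchanger to the skeleton) read 11.28, 11.46 and 11.62 in wild type arrays, 11.49, 11.55 and 11.40 with 1 Th3 allele and 10.11, 10.38 and 10.54 with 2, a share of -0.028 (-0.33 to 0.20). Kel, the Kell blood group protein, read 11.96, 12.08 and 12.15 in wild type arrays, 12.03, 12.11 and 12.04 with 1 Th3 allele and 11.33, 11.04 and 11.28 with 2, a share of 0.0039 (-0.27 to 0.22). In both, Th3/+ lay inside or across the wild type range and all Th3/Th3 arrays lay below it.

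Sptb (beta spectrin), Ank1 (ankyrin) and Slc4a1 had shares of 0.0026, 0.048 and 0.049, and Cd47, the surface signal against phagocytosis, had 0.13 (-0.095 to 0.33). The exceptions were Aqp1, the water channel, an in-step faller (-1.53 in Th3/Th3, share 0.45), and Tpm1, a tropomyosin, the 1 member that rose, with a share of 0.80 (0.35 to 1.44).

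Of 19 heme synthesis genes 10 fell and 2 rose with 2 alleles, against 5.37% and 7.71% of all genes, and none was called with 1 allele. Of the 10 fallers 9 were second-allele type, against 47.1% of all fallers. The list mean was -0.01, 0.08 and 0.09 with 1 allele, inside the wild type range of -0.09 to 0.15, and -0.28, -0.45 and -0.36 with 2, a share of -0.15 that ran from -0.44 without wild type replicate 3 to -0.025 without wild type replicate 1. Slc25a37, mitoferrin 1, which brings iron into mitochondria, read 12.72, 12.74 and 12.79 in wild type arrays, 12.61, 12.69 and 12.60 with 1 Th3 allele and 11.23, 10.77 and 11.18 with 2, in order on all 9 arrays with a share of 0.067 (-0.083 to 0.20), and was called away from the midpoint (adjusted p = 0.0479).

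The first enzyme of the pathway in erythroid cells, Alas2, had a share of 0.082 (-0.31 to 0.37) and the last, Fech, 0.053 (-0.31 to 0.32). Iscu, the scaffold of iron-sulfur clusters, was the in-step riser of the list (0.43, 0.15 to 0.70). Iron genes split likewise: Tfrc, the transferrin receptor that also served in the sort, read 11.92, 12.23 and 12.20 in wild type arrays, 11.999, 12.09 and 11.98 with 1 Th3 allele and 10.93, 11.11 and 10.95 with 2 (share 0.085, -0.12 to 0.25), while Ftl1, the ferritin light chain, rose with 0.45 (0.20 to 0.69). Over the 20 iron genes 3 rose and 3 fell, against 7.71% and 5.37% of all genes.

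Of 32 erythroid transcription factors 15 fell and none rose, against 5.37% and 7.71% of all genes. Of the 15, 8 were second-allele type, 1 in-step type and 6 not placed. Over all fallers these classes held 47.1%, 8.38% and 42.3%. The list share was 0.16 (0.094, 0.24 and 0.086 without wild type replicate 1, wild type replicate 2 and Th3/+ replicate 1). Runx1t1, a corepressor of the ETO family, read 8.90, 8.89 and 9.14 in wild type arrays, 8.95, 8.98 and 8.91 with 1 Th3 allele and 6.27, 6.49 and 6.19 with 2, 6.3-fold lower with 2 alleles, a share of 0.0096 (-0.11 to 0.11, adjusted p against the midpoint 0.00623). Klf3 and E2f2, factors of erythroid gene control and of the cell cycle, had 0.0099 (-0.33 to 0.27) and 0.068 (-0.20 to 0.28). Bcl11a, a repressor of embryonic-type globins, was the in-step member at 0.39 on a change of -1.51. For Gata1 and Tal1, at 0.25 and 0.38, the intervals held both 0 and 0.5.

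Of 26 erythropoietin and STAT5 targets 6 fell and 1 rose, against 5.37% and 7.71% of all genes. Bcl2l1, the survival gene BCL-XL, read 12.08, 12.02 and 12.30 in wild type arrays, 12.15, 12.10 and 12.04 with 1 Th3 allele and 11.21, 10.52 and 10.96 with 2, a share of 0.028 (-0.30 to 0.28). Pim1, a survival kinase, had 0.043 (-0.28 to 0.29).

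Of 48 mitosis genes 18 fell and none rose, against 5.37% and 7.71% of all genes. Of the 18, 10 were second-allele type and 8 not placed, where 47.1% and 42.3% of all fallers were. The list share was 0.15. It was 0.044 and 0.24 without Th3/+ replicates 1 and 2, and 0.24 and 0.069 without wild type replicates 1 and 3. Mki67, the proliferation antigen, read 11.92, 11.98 and 11.995 in wild type arrays, 11.81, 11.90 and 11.82 with 1 Th3 allele and 10.78, 10.98 and 11.14 with 2, in order on all 9 arrays but with a first step of only -0.13 ± 0.09 (standard error) against a total of -0.997. Ube2c, which hands ubiquitin to the anaphase complex, had a share of 0.22 (-0.021 to 0.42). Of 47 DNA replication genes 4 fell, against 5.37% of all genes. On their list mean Th3/+ replicate 1 alone was low at -0.28, with the other Th3/+ arrays at 0.04 and 0.05.

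Among markers of other cell types, the list mean of macrophage markers was lower in Th3/Th3, alongside the erythroid falls. Of 19 macrophage markers 3 fell (Fcer1g, C1qb and Tyrobp) and none rose, against 5.37% and 7.71% of all genes. The list mean ran from -0.19 to 0.16 in wild type, from -0.28 to 0.23 on the Th3/+ arrays and from -0.53 to -0.44 in Th3/Th3. The defining marker Adgre1 lay near the level of dim signals in every genotype, at means of 4.53 in wild type, 4.81 with 1 allele and 4.19 with 2. None of 17 hepatoblast, 9 granulocyte and mast cell, 6 lymphoid and 10 endothelial markers was called, and 2 of 12 megakaryocyte markers fell. Over all genes 13.1% were called in Th3/Th3 against wild type and 5.37% fell. Over the erythroblast markers 7 of 9 fell in Th3/Th3, where 5.37% of all genes fell, with a list share of 0.16. The part of these markers in the late erythroid, membrane, heme and mitosis falls was not tested.

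In-step genes that fell were fewer, and the 6 named belonged to none of the gene lists. By the smallest p in Th3/+ they were Natd1, Septin1, Hif3a, St3gal4, Adcy7 and Prr15l, with shares from 0.35 to 0.55. Natd1 read 8.66, 8.44 and 8.72 in wild type arrays, 7.84, 8.17 and 8.10 with 1 Th3 allele and 7.54, 7.62 and 7.41 with 2, a share of 0.53 (0.27 to 0.79). Septin1, a cytoskeletal GTPase, read 7.70, 7.24 and 7.59 in wild type arrays, 6.89, 6.96 and 6.89 with 1 Th3 allele and 5.76, 6.25 and 5.96 with 2, a share of 0.39 (0.18 to 0.59). All 6 fell in order on the 9 arrays, but none of their first steps was called in Th3/+ against wild type.

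Among globins outside the deleted adult genes, patterns differed gene by gene. Hbq1a, a theta globin of the alpha locus, read 9.18, 9.12 and 9.11 in wild type arrays, 9.08, 7.87 and 8.01 with 1 Th3 allele and 5.97, 6.23 and 5.55 with 2, and Th3/+ replicate 1 stood near wild type while the other Th3/+ arrays were lower. Its share was 0.25 (0.050 to 0.43). Hbq1b, a similar gene of the same locus whose probes may share targets with it, was second-allele type at -0.085 (-0.45 to 0.18).

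Hbb-bh1, an embryonic beta-type gene beside the adult genes, read 12.16, 12.14 and 12.60 in wild type arrays, 11.63, 11.57 and 11.91 with 1 Th3 allele and 10.45, 10.93 and 9.99 with 2, an in-step share of 0.32 (0.059 to 0.56), whereas the other embryonic genes Hbb-y and Hba-x were not called (differences of -0.05 and 0.04 in Th3/Th3). Genes within 10 Mb of the beta-globin genes, the region linked to the Th3 allele, were counted apart: 24 of 157 were called (15.3%) and 4 of the 24 were in-step type (16.7%), against 1663 of 12741 elsewhere (13.1%) with 211 in-step (12.7%).

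A few genes did not follow the order of allele number. Oasl2, an interferon-induced gene, was highest in Th3/+, reading 6.43, 6.19 and 6.44 in wild type arrays, 7.25, 7.86 and 7.44 with 1 Th3 allele and 7.14, 6.86 and 6.86 with 2, a share of 1.93 (1.22 to 4.54), while no other of 16 interferon genes was called in Th3/Th3. Prxl2b, a peroxiredoxin-like enzyme, read 6.30, 6.40 and 6.38 in wild type arrays, 6.90, 6.77 and 6.84 with 1 Th3 allele and 6.05, 6.20 and 5.95 with 2, and was called away from the midpoint (adjusted p = 0.0479) but not in Th3/Th3 against wild type (adjusted p = 0.0914). Gadd45a, a stress sensor of the cell cycle, was at 11.10, 11.17 and 11.29 in wild type arrays, 11.58, 11.51 and 11.59 with 1 Th3 allele and 11.15, 11.06 and 11.29 with 2, not called against the midpoint (adjusted p = 0.121).

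Ube2o and Tcp11l2 fell with 2 alleles from a Th3/+ mean above that of wild type. Ube2o, a ubiquitin enzyme that remodels the reticulocyte, read 10.85, 10.73 and 11.11 in wild type arrays, 11.16, 11.20 and 11.12 with 1 Th3 allele and 9.93, 9.75 and 10.001 with 2, a share of -0.26 (-0.63 to -0.00088), and Tcp11l2 read 10.32, 10.46 and 10.65 in wild type arrays, 10.73, 11.01 and 10.83 with 1 Th3 allele and 9.50, 9.12 and 9.55 with 2, a share of -0.35 (-0.82 to -0.043). Both were called away from the midpoint (adjusted p = 0.0479 for each). Their first steps had unadjusted p of 0.0493 and 0.027 and were not called.

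**Figure D5:**
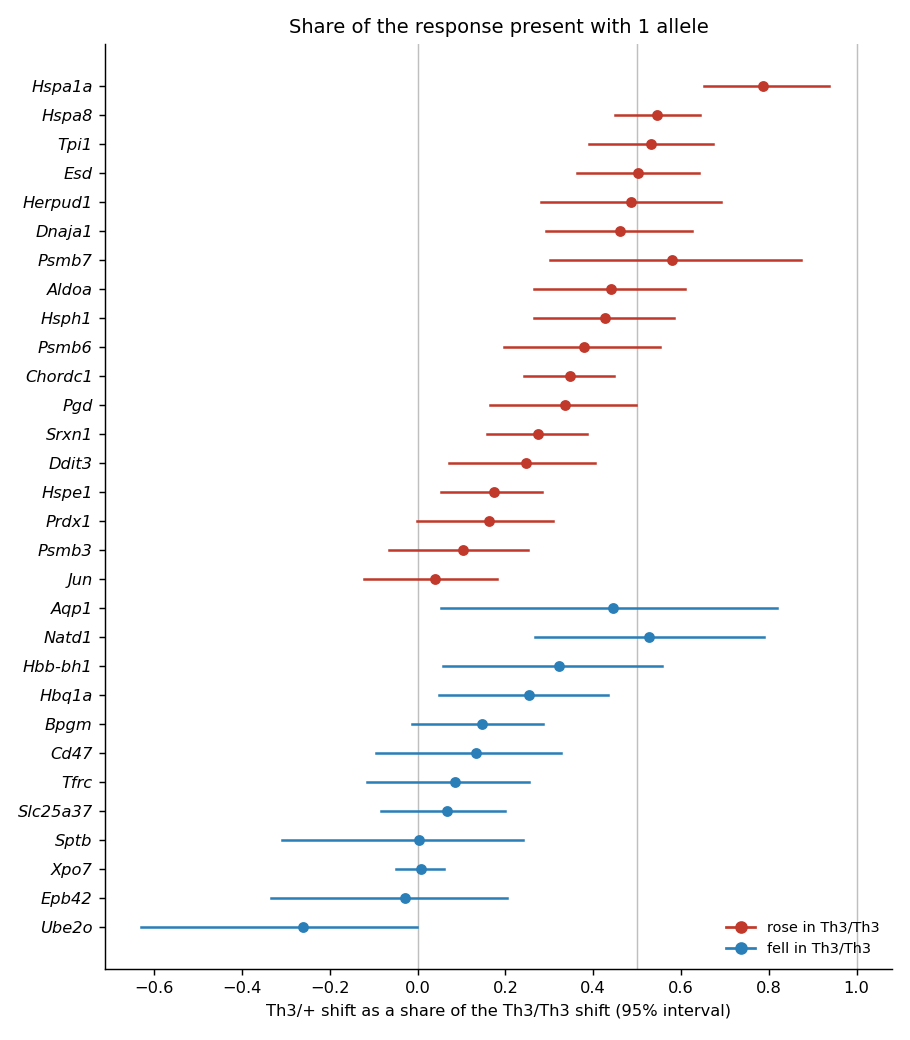
Het share (horizontal axis) with its 95% interval for 30 genes, red for genes that rose and blue for genes that fell in Th3/Th3, with lines at 0, 0.5 and 1. Hspa1a lies above 0.5, the intervals of Hspa8, Tpi1, Aldoa and Hsph1 hold 0.5, and that of Xpo7 (-0.049 to 0.060) is the shortest shown.

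The shares depend on the scale. On antilogged signal the share of a large rise is smaller, since equal folds add less signal at the lower step: Hsph1 went from 0.43 to 0.18, Aldoa from 0.44 to 0.24, Chordc1 from 0.35 to 0.17 and Hspa1a from 0.79 to 0.53. The share of a fall becomes larger, as for Hbq1a (0.25 to 0.48), while genes at a share near 0 stay there (Xpo7 0.019, Epb42 -0.040). Even steps here are thus even in fold. In units of signal most of the rise of Hsph1, Aldoa and Chordc1 came with the second allele, and that of Hspa1a was split nearly evenly.

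Shares also varied with the brightness of the probe set, a split made after the data were seen. Risers with a Th3/Th3 signal under 8, 8 to 10, 10 to 12 and 12 or more had median shares of 0.17, 0.21, 0.30 and 0.32 (441, 363, 148 and 43 genes). Fallers with a wild type signal in the same bands had 0.23, 0.15, 0.060 and 0.081 (221, 236, 196 and 39 genes). Risers thus showed larger shares and fallers smaller ones at high signal. Splitting lists at a mean signal of 10, chaperones kept 0.39 below and 0.43 above, and late erythroid genes 0.042 and -0.0041. Proteasome shares were 0.13 below and 0.41 above, those of NRF2 genes 0.11 and 0.53, and those of red cell membrane genes 0.33 and 0.017. The part that signal near the top of the scale has in these differences was not tested.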

How the data were processed

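Signals of 9 arrays (3 per genotype) were used as deposited by the authors, as log2 values. The MAS5 software is named per the submitters' processing notes, with its settings not given in the sources used here, and scale and centring are not stated (array medians 4.95 to 5.01). Of 35556 probe sets, 6617 of a control block were left out. A probe set was kept when 3 or more arrays read it above their own 40th percentile (17742 were). Of the 28939 outside the control block, 21789 carried 1 gene symbol, 1621 several and 5529 were not listed; only single-symbol probe sets named genes, the brightest per gene, and 12852 of 12898 genes matched RefSeq.

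limma 3.58.1 in R 4.3.3 (lmFit, eBayes with trend) estimated a mean for each genotype from the 9 arrays together, with two-sided tests, Benjamini-Hochberg adjustment over the kept probe sets and calls at adjusted p under 0.05. The contrasts set each Th3 genotype against wild type, the 2-allele genotype against the 1-allele genotype, and Th3/+ against the midpoint of the others. Shares have Fieller 95% intervals. A list mean averages its measured members on an array minus the wild type mean. The list share is the ratio of genotype means, given where the Th3/Th3 mean was at least 0.2 from wild type. The number of arrays limits the precision, and an exact permutation test of 3 against 3 cannot go below p = 0.1.

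Genes were named by the smallest p against the midpoint or in Th3/+ within classes and, per list, the 3 smallest p and the extreme shares, with all globins. Other list members with a share alone were chosen after their values were seen. The members, lists and rules were chosen with earlier results of these data known. Scripts were tested on simulated data.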

Additional observations from a re-analysis of the deposited data

How the results depend on the processing

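Across 22 other settings, 718 of 761 comparisons stayed close, meaning within 1.5 times for a count and within 1 SD over the Th3/+ arrays for a median or list share. That SD is wide, so list shares within it can still change sign or move by over 1.5 times. For the shares of 139 named genes 2510 of 2639 comparisons stayed close, with 0 reversed. Part of this agreement was fixed in advance, for gene and list shares alike. Changes to the variance model and the replicate block leave a share as it is. Leaving out 1 Th3/+ array cannot move it by 1 SD. Only a gene whose interval left out 0 could count as reversed, so second-allele genes could not. The count of 5 probe sets called in Th3/+ against wild type became 10 with a stricter filter on dim signals, 0 with wild type and Th3/+ arrays alone and 3 without both arrays that stood apart. The count of 14 against the midpoint became 2 with no filter, 38 with the stricter filter, 2 with eBayes without trend, 3 with the replicate block and 1 without both arrays that stood apart. Among genes changed at least 2-fold the second-allele and in-step counts were 120 and 57 for genes that rose and 142 and 22 for genes that fell, and with a 90% interval the in-step genes that fell numbered 88. Quantile normalization moved the late erythroid list share to 0.049, and leaving out both arrays that stood apart moved the glycolysis share to 0.89. Without both of those arrays, the probe sets called in Th3/Th3 numbered 1561 higher and 991 lower, in-step genes that rose 230, and second-allele genes that fell 351. The causes of these changes were not tested.

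With 1 array left out at a time, the probe sets called in Th3/Th3 ran from 832 to 1389 higher and from 551 to 921 lower, those in Th3/+ from 1 to 12, those in Th3/Th3 against Th3/+ from 585 (without Th3/+ replicate 2) to 1412, and those against the midpoint from 1 to 33. Second-allele genes ran from 193 to 435 that rose and from 209 to 348 that fell, and in-step genes from 91 to 184 and from 35 to 63. List shares ran from -0.058 to 0.058 for late erythroid genes from -0.44 to -0.025 for heme synthesis and from 0.50 to 0.76 for glycolysis. Wider ranges were those of DNA replication (-0.20 to 0.50), aminoacyl-tRNA synthetases (0.25 to 0.85), cholesterol synthesis (0.18 to 0.60), the respiratory chain (0.11 to 0.45), interferon genes (0.070 to 0.49) and macrophage (-0.48 to 0.068) and megakaryocyte markers (-0.25 to 0.15).

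The labels number the replicates alike in each genotype without saying what the numbers mean. Of 9 same-numbered pairs 6 deviated together (r over 0.1), with r from -0.125 to 0.355. Also, 6 of 9 samples correlated best with a sample of their own number. Whether same-numbered samples share an origin was not tested, and the main fit did not use the numbers as pairs. With the replicate block, the probe sets called in Th3/Th3 numbered 1445 higher and 1025 lower, against 1297 and 884 without it. Those called in Th3/Th3 against Th3/+ numbered 1513, against 1290. With 3 arrays per genotype, 509 of the 995 genes that rose and 293 of the 692 that fell could not be placed. For genes near background, such as Jun and Slc7a11, low signal limits what can be seen of a first step.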

Other observations

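Of 24 genes of cell cycle exit, which slow division as erythroblasts mature, 8 fell and none rose (5.37% of all genes fell). Of the 8, 3 were second-allele type and 5 not placed, where 47.1% and 42.3% of all fallers were. The list share was 0.24. The list mean was -0.13, -0.03 and -0.11 on the Th3/+ arrays and -0.37, -0.43 and -0.34 on the Th3/Th3 arrays. All Th3/+ arrays lay below every wild type array and above every Th3/Th3 array. At an unadjusted p under 0.05, 3 members were lower in Th3/+, where 645 of 17742 probe sets passed in either direction. Of 17 early erythroid and progenitor genes 3 fell. Over all genes 7.71% rose and 5.37% fell. In the BCL2 family of survival and death genes 2 of 14 rose and 2 fell, and among 24 AP-1 and immediate-early genes 2 rose and 2 fell. Of 36 ribosome biogenesis genes 3 rose and 2 fell, near the shares over all genes. Their Th3/+ list means ran from -0.16 on replicate 1 to 0.23 on replicate 3.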
